A study of Mus musculus with 8 samples.

Results

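The Wnt ligands are 10 of the 19 Wnt genes in the count table, namely Wnt1, Wnt2, Wnt3, Wnt3a, Wnt4, Wnt5a, Wnt5b, Wnt6, Wnt7b and Wnt8a, and they were taken by gene name from the 55422 features counted in each library. Single-cell RNA-seq (10x Genomics, where each captured transcript carries a unique molecular identifier, UMI) was performed on chimeric mouse embryos collected at embryonic day 7.5 (E7.5) and 8.5 (E8.5). Embryos were made by injecting Tet-TKO embryonic stem (ES) cells, which lack Tet1, Tet2 and Tet3, into wild-type C57BL/6J blastocysts, and the pooled embryos were sorted by fluorescence. The tdTomato+ fraction is called Tet-TKO and the tdTomato− fraction WT host. The E8.5 libraries number 4 for Tet-TKO and 2 for WT host, and the E7.5 libraries 1 for each genotype. Tet-TKO cells came from a single ES cell line of mixed C57BL/6J-129Sv background that carries an H2B-tdTomato transgene under the CAG promoter, so genotype, strain and injection cannot be told apart. Both fractions developed in the same chimeric environment. ES cells injected into blastocysts do not form trophoblast, and cells of the ExE (extraembryonic) ectoderm therefore come from the host.

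Between 1012 and 9552 cells per library were kept, with a median of 12176 to 68704 UMIs per cell. Tet-TKO libraries 3 and 4 stand apart with 2304 and 1012 cells and medians of 40386.5 and 68704 UMIs. A tdTomato UMI was seen in 60.8% to 87.2% of the cells of a Tet-TKO library and in 0.532% to 0.841% of those of a WT host library, and 1.18% to 1.52% of barcodes were shared with another library. Cells were clustered without any Wnt gene and clusters were named by fixed markers ("-like") or left with a number when the markers did not settle a name. Some listed clusters, among them cluster 1 of E8.5, were left with a number because their leading genes were judged to go against the name. Levels are in CPM, the UMIs of a ligand scaled to the summed UMIs of the class in that library. P-values measure the spread between libraries of pooled embryos, which may be technical.

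Wnt ligands are secreted, lipid-modified glycoproteins that need Porcn for their acylation and Wls for their release. They bind Frizzled receptors together with Lrp5 or Lrp6, which stabilises β-catenin and activates Tcf and Lef target genes, or act through receptors such as Ror1, Ror2 and Ryk without β-catenin. In the gastrulating embryo Wnt3 is needed to form the primitive streak, Wnt3a and Wnt8a act in the streak and tail bud, and Wnt1 is made at the midbrain-hindbrain boundary and in the dorsal neural tube. TET enzymes oxidise 5-methylcytosine, which in most mouse tissues sits at CpG dinucleotides.

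Each ligand lies at its own locus (GRCm38). Wnt1 is at chr15:98789857-98793837 on the plus strand, Wnt2 at chr6:17988940-18030585 on the minus strand, Wnt3 at chr11:103774150-103817957 on the plus strand and Wnt3a at chr11:59248033-59290752 on the minus strand. Wnt4 is at chr4:137277489-137299726 (plus), Wnt5a at chr14:28504750-28527448 (plus), Wnt5b at chr6:119432531-119544347 (minus), Wnt6 at chr1:74771892-74785322 (plus) and Wnt7b at chr15:85535437-85582473 (minus). All are annotated as protein coding. None overlaps another gene on its own strand, and an annotated gene lies on the opposite strand at Wnt5a (Gm2670), Wnt5b (Fbxl14), Wnt6 (Gm29539) and Wnt7b (AU022754).

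Wnt1, Wnt2 and Wnt4 are the ligands called lower in Tet-TKO cells of some class, as described below, and the bases just before their annotated starts are shown, 5′ to 3′ on the gene's strand, with each CpG in capitals. They are RefSeq sequences of build GRCm38.p6, at chr15:98789607-98789856 (plus), chr6:18030586-18030695 (minus) and chr4:137277385-137277488 (plus).
Wnt1: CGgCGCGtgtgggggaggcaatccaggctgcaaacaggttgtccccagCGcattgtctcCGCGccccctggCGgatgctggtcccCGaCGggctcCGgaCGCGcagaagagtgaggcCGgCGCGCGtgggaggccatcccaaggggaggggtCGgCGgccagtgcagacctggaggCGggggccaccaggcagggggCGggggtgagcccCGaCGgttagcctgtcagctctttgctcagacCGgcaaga
Wnt2: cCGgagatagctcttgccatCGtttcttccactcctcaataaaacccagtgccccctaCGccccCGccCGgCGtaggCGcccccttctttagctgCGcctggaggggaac
Wnt4: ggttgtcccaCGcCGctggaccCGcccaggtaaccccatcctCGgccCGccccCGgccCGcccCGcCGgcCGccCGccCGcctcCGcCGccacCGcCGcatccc
The letters CG occurred 23 times in the 250 bases before the RefSeq start of Wnt1, 20 times for Wnt2 and 44 times for Wnt4 (CG reads the same on both strands, and occurrences do not overlap). For Wnt2 and Wnt4 the stretches shown end at the annotated start of the gene and hold 8 and 16 of these. The rest of each of these 2 windows lies within the gene position given above. Across 32851 such windows of all genes the median was 6, 92.1% held at least 1, and 13.3%, 17.9% and 0.539% held as many as Wnt1, Wnt2 and Wnt4. The windows of Wnt3 (22), Wnt6 (28) and Wnt3a (41) were likewise rich, and the 3 starts of Wnt5b held 7, 4 and 35. Of the 10 ligands 7 were in the sequence table, and Wnt5a, Wnt7b and Wnt8a were not. DNA methylation was not measured in these libraries, and the letters say nothing about the methylation state.

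At E8.5 each ligand had its own distribution over the 37 cell classes. In WT host cells, midbrain-hindbrain boundary-like and neural crest-like cells together held most Wnt1 UMIs (44.3% and 29.4%), ExE ectoderm-like cells held 62.2% of Wnt7b, and surface ectoderm-like cells held 39.8% of Wnt6. NMP (neuromesodermal progenitor) and caudal epiblast-like cells held 37.5% of Wnt3a and 38.4% of Wnt8a. Wnt2 was spread over cardiomyocyte-like cells (24.7%) and cluster 4 (18.3%), while no class held more than 16.2% of Wnt5a (allantois-like) or 20.1% of Wnt5b (gut endoderm-like). These shares pool 2 WT host libraries of unlike composition, with gut endoderm-like cells at 13.9% and 5.82% of cells.

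**Figure D1:**
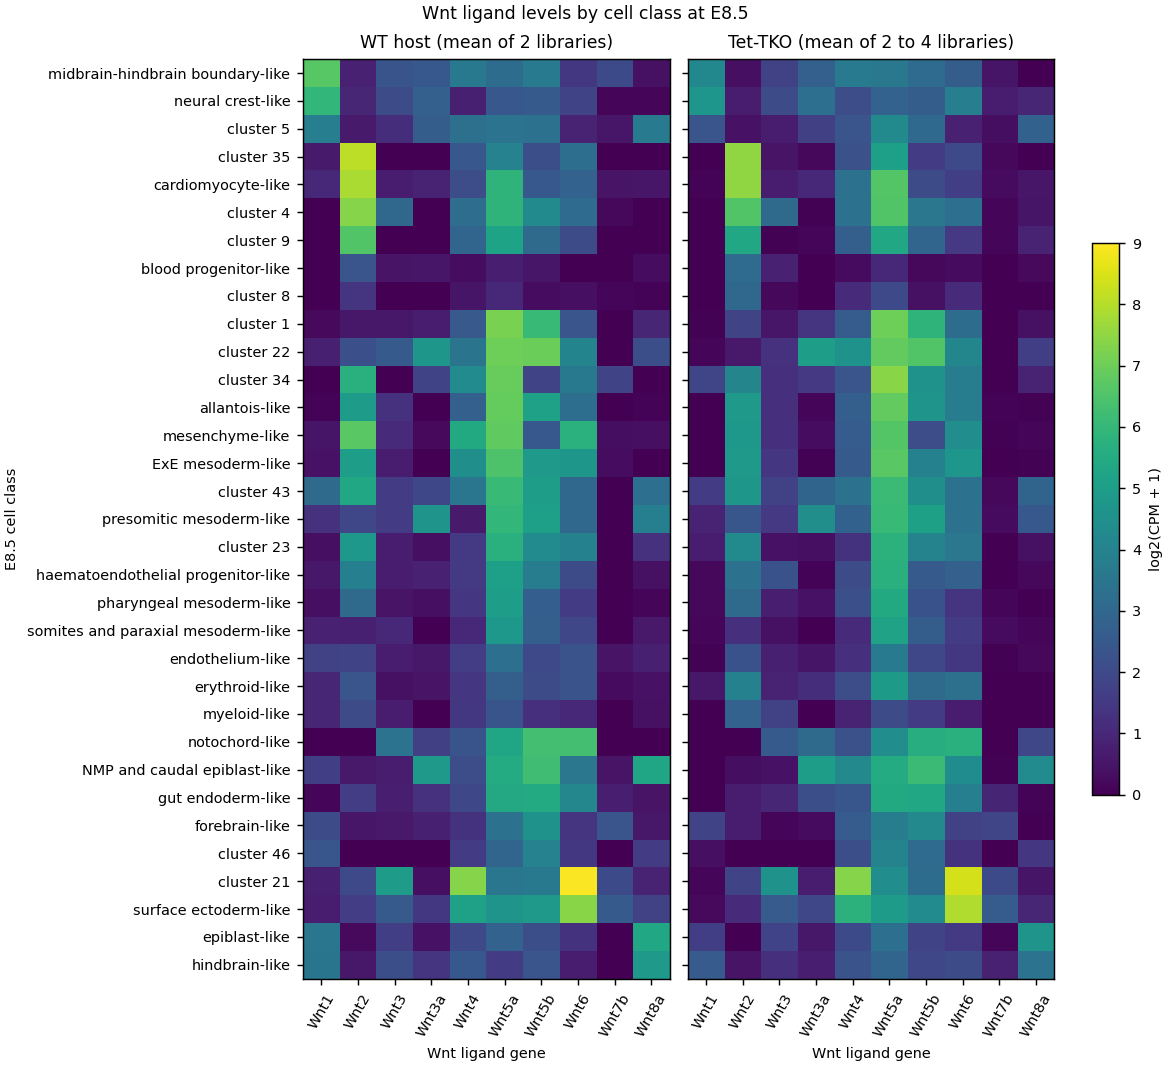
Level of each Wnt ligand (log2 of CPM + 1) in WT host and Tet-TKO cells, in E8.5 classes with at least 2 libraries of each genotype. ExE ectoderm-like cells, a class with 206 WT host cells and 1 Tet-TKO cell, are not drawn. Wnt5a and Wnt5b are the ligands seen in the widest set of classes.

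Each ligand was tested between genotypes in the classes where that was possible. Of 141 tests of a ligand in a class (33 classes could be tested), 5 were called, 1 higher and 4 lower in Tet-TKO cells. A call required an adjusted p under 0.01 together with at least a 2-fold difference (edgeR quasi-likelihood test, Benjamini-Hochberg adjustment over all genes of the class). The background over all gene tests in these classes was 0.647%, with 0.298% higher and 0.35% lower in Tet-TKO cells, and DESeq2 called 8 ligand tests against a background of 1.14%. Ligand tests were thus called more often than the background in both, though classes share libraries and their tests are not independent. On simulated counts edgeR recovered 7.5% to 12.5% of genes changed 2-fold, so a test without a call does not show equal levels. At an adjusted p of 0.05 with no minimum fold, 9 ligand tests passed, against a background of 1.73%. Counts at an unadjusted p under 0.05, given below, have no share over all genes beside them and are not read as results. The calls were Wnt1 in midbrain-hindbrain boundary-like cells, Wnt4 in ExE mesoderm-like and mesenchyme-like cells, Wnt2 in mesenchyme-like cells and Wnt5a in erythroid-like cells. The first 2 of these classes are single clusters. Mesenchyme-like and erythroid-like cells are made of several clusters that the genotypes filled unequally, and there the differences were smaller within clusters, as given with each ligand. When each cluster was tested by itself (an alternative added after the data were seen), 3 of 158 ligand tests passed, against a background of 0.542%.

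**Figure D2:**
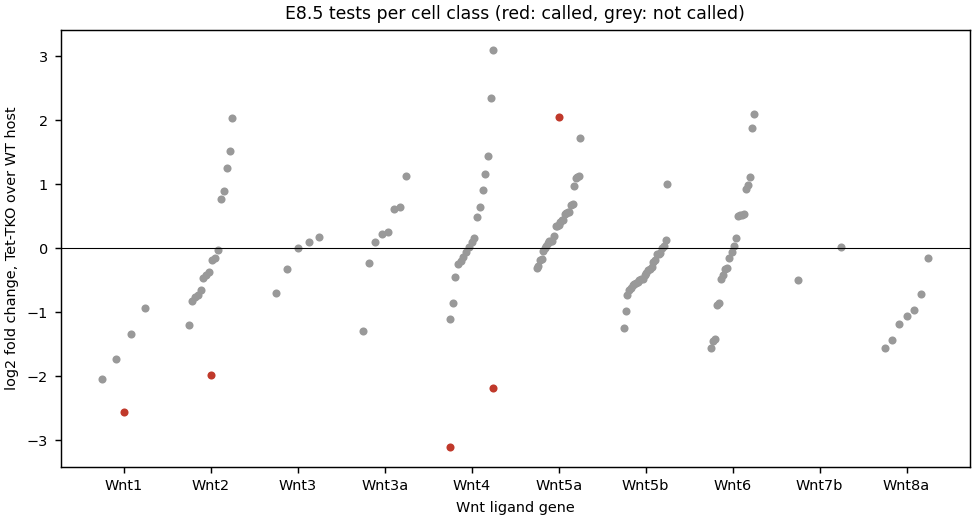
Log2 fold change (Tet-TKO over WT host) of each ligand in each E8.5 class tested, 1 point per class, with the calls marked. The 4 calls below 0 run from -3.10 to -1.98 and the call above 0 is 2.04, and the medians of all genes per class lie between -0.0007 and 0.025.

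Wnt1, the ligand of the midbrain-hindbrain boundary and dorsal neural tube, was lower in Tet-TKO cells in each of the 5 classes where it could be tested, with 1 of the 5 called. Classes share libraries, so a count of directions over classes is not a count of independent results. In midbrain-hindbrain boundary-like cells (En1, En2, Pax5 and Pax2 among the leading genes) the WT host libraries stood at 107 and 95.0 CPM of Wnt1, and Tet-TKO libraries 1 to 4 at 17.3, 12.7, 10.7 and 29.4 CPM. The highest Tet-TKO library was thus under the lower WT host library by a wide margin. The log2 fold change was -2.56 ± 0.29 (SE, n = 4 and 2, adjusted p = 0.00119, edgeR quasi-likelihood test), in a class where 0.572% of genes were called. Wnt1 UMIs were found in 39.6% of 488 WT host cells and 14.1% of 491 Tet-TKO cells of this class. After each cell was thinned to 5000 UMIs, the shares were 29.98% of 427 and 5.68% of 440 cells. In gut endoderm-like cells, which should not express Wnt1, the thinned share was 0 of 1514 WT host and 0 of 724 Tet-TKO cells. Of 29 marker lists 19 overlapped between genotypes in this class, among them its own (502.8 to 660.5 CPM in Tet-TKO against 566.1 to 690.2 CPM in WT host). The summed level of the spinal cord markers was lower in the Tet-TKO cells of this class (194 to 245 CPM against 284 to 308 CPM), one of 7 lists out of 29 that were lower without overlap. The erythroid list was another (9.25 to 40.1 against 628 to 1582 CPM). It was not particular to this class, with WT host levels of 461 to 1208 CPM in ExE mesoderm-like and 450 to 1042 CPM in mesenchyme-like cells. In turn 3 lists were higher in the Tet-TKO midbrain-hindbrain boundary-like cells, those of neural crest (29.5 to 66.9 against 25.5 to 28.2 CPM), ExE mesoderm and notochord. Their part in the result was not tested. Without WT host library 1 or 2 the adjusted p of Wnt1 was 0.0217 or 0.0301 (edgeR), above the threshold, with log2 fold changes of -2.45 and -2.67.

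In the other classes the lower Wnt1 level did not pass the main test. It was called under 2 of 18 alternatives in neural crest-like cells, 2 of 18 in cluster 5, 0 of 19 in epiblast-like and 0 of 17 in hindbrain-like cells. Neural crest-like cells had 15.9, 47.5 and 13.01 CPM of Wnt1 in Tet-TKO libraries 1 to 3 (library 4 had 8 cells and was left out) and 66.3 and 56.5 CPM in the WT host libraries. The groups did not overlap, but the second Tet-TKO library came close (log2 fold change -1.33, adjusted p = 0.225, edgeR). Epiblast-like cells gave -2.04 (adjusted p = 0.088), the Olig2+ and Pax6+ neural cluster 5 gave -1.73 (0.167) and hindbrain-like cells -0.93 (0.705), all from edgeR. The difference was larger in midbrain-hindbrain boundary-like than in neural crest-like cells, by -1.64 ± 0.31 on the log2 scale (adjusted p = 0.00513 for the difference of differences, edgeR, 0.139% of genes called), a pair chosen after the calls were seen.

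**Figure D3:**
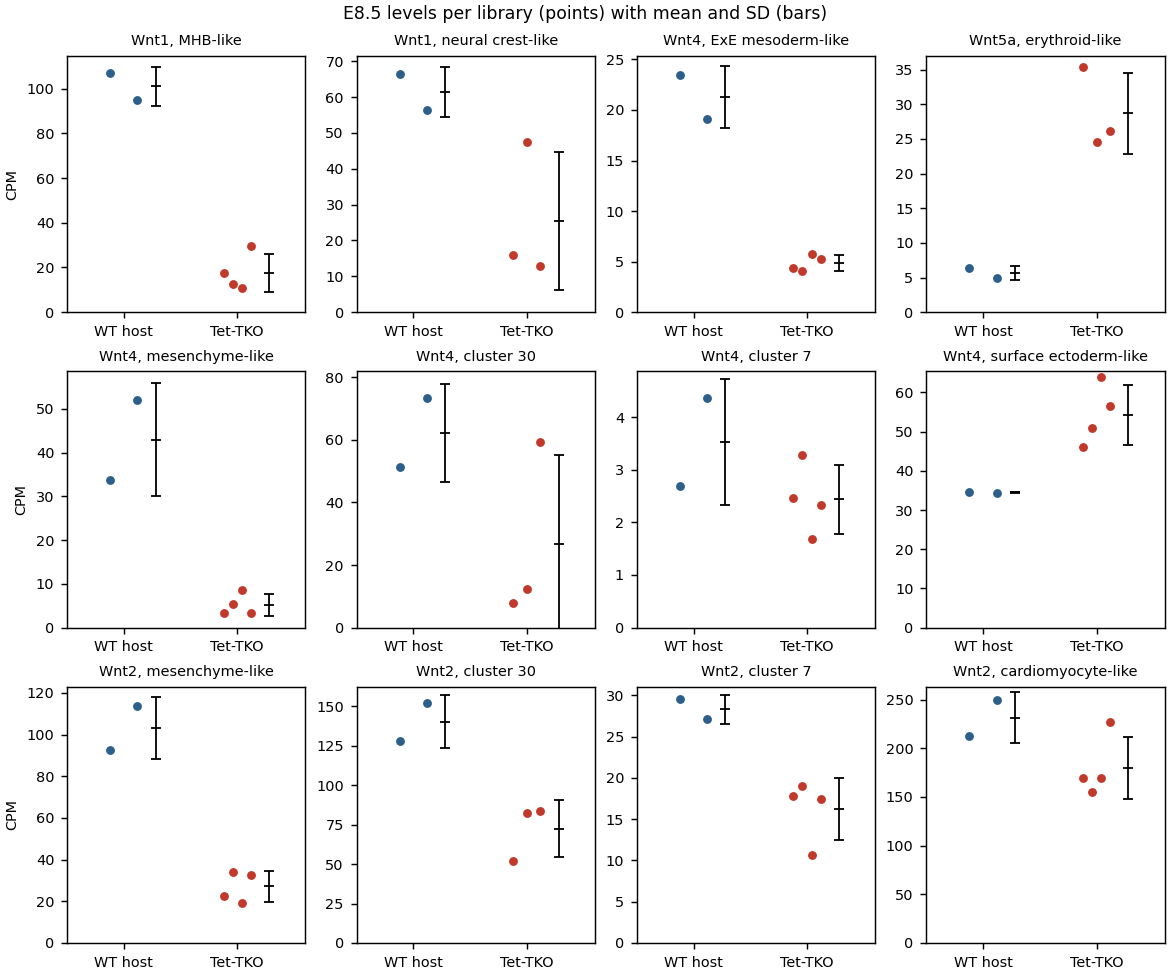
Levels (CPM) of called ligands in single E8.5 libraries, by class, with the clusters that make up the mesenchyme-like class and, for comparison, the classes where the same ligand was high. For Wnt1 in midbrain-hindbrain boundary-like cells the 4 Tet-TKO points lie at 10.7 to 29.4 CPM and the WT host points at 95.0 and 107 CPM, whereas in cluster 7 the Wnt4 and Wnt2 points of the genotypes lie closer together than in the whole mesenchyme-like class.

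Wnt4, best known for its role in kidney and gonad development, differed in direction between classes. In WT host cells its highest level was in cluster 21 (Tac2, Wnt4 and Wnt6 are among its leading genes), with 165 CPM in both libraries, and there the 3 Tet-TKO libraries with enough cells had 146, 155 and 192 CPM. Those ranges overlap (log2 fold change 0.02, SE 0.16, adjusted p = 0.983, edgeR). Cluster 21 stood apart from mesenchyme-like cells (33.8 and 52.1 CPM in WT host libraries) and surface ectoderm-like cells (34.6 and 34.4 CPM), which cannot be ordered against each other. ExE mesoderm-like cells (23.4 and 19.1 CPM) and cluster 34 (15.6 and 22.6 CPM) were lower and cannot be ordered either. Cluster 34 held 36 and 58 WT host cells with few UMIs (at the median 0.178 of the library median), so its levels rest on few counts.

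In ExE mesoderm-like cells (Hand1, Bmp4 and Foxf1 are among the markers), Wnt4 fell to 4.34, 4.04, 5.79 and 5.21 CPM in Tet-TKO libraries 1 to 4. All of these were under the WT host values, by a log2 fold change of -2.18 ± 0.25 (SE, adjusted p = 0.00686, edgeR), in a class where 0.123% of genes were called. The class is a single cluster of 1047 Tet-TKO and 226 WT host cells. The evidence is thin in counts, at 103 Wnt4 UMIs in Tet-TKO and 76 in WT host cells. After thinning, a Wnt4 UMI was found in 5.29% of 208 WT host cells and in 1.86% of 1020 Tet-TKO cells (15.5% and 6.78% before). Gut endoderm-like cells, a class with little but some Wnt4 (means of 2.85 CPM in WT host and 4.37 CPM in Tet-TKO), had 1.19% and 1.52%. The thinned Tet-TKO share is close to that of this other class. Of 29 marker lists 9 were lower in the Tet-TKO cells of this class without overlap and 0 were higher. The other 20 overlapped, among them that of ExE mesoderm itself (863.1 to 1251 against 1219 to 1326 CPM). The lower ones include mesenchyme (260 to 428 against 447 to 546 CPM), cardiomyocyte (14.9 to 40.4 against 71.2 to 109 CPM) and erythroid markers (7.29 to 38.7 against 461 to 1208 CPM), and their part in the result was not tested. Leaving out any single library other than Tet-TKO library 1 ended the call, with adjusted p between 0.0129 and 0.175 (edgeR).

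Mesenchyme-like cells had 3.24, 5.48, 8.49 and 3.28 CPM of Wnt4 in Tet-TKO libraries 1 to 4, far under the WT host range (log2 fold change -3.10 ± 0.32, adjusted p = 0.0017, edgeR, 1.55% of genes called). This class joins cluster 7 (Lum, Tdo2 and Col3a1), with 366, 484, 151 and 58 Tet-TKO and 70 and 94 WT host cells, and cluster 30 (Postn, Prss35 and Ccn4), with 67, 171, 22 and 9 Tet-TKO and 129 and 188 WT host cells. Most Tet-TKO cells thus lay in the first and most WT host cells in the second. Within cluster 7 the Wnt4 log2 fold change was -0.55 (adjusted p = 0.752) and within cluster 30 it was -1.52 (adjusted p = 0.129, edgeR, Tet-TKO library 4 with 9 cells left out). In cluster 30 Wnt4 stood at 7.96, 12.4, 59.4 and 9.56 CPM in the Tet-TKO libraries and at 51.3 and 73.3 CPM in WT host, and the third Tet-TKO library (22 cells) lay within the WT host range. The call for the whole class therefore did not hold within its clusters. It was also lost without WT host library 1 or 2 (adjusted p = 0.0127 and 0.0463, edgeR). The mesenchyme markers were lower in its Tet-TKO cells as well (1017 to 2159 against 2769 to 3688 CPM), among 12 lists of 29 that were lower without overlap. These include the markers of cardiomyocytes (47.0 to 115 against 388 to 399 CPM) and erythroid cells (6.06 to 45.6 against 450 to 1042 CPM). In turn 4 were higher, including NMP and caudal epiblast (75.8 to 101 against 23.6 to 45.1 CPM), neural crest (42.9 to 82.1 against 23.5 to 27.4 CPM) and endothelium markers. Their part in the result was not tested.

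Surface ectoderm-like cells had 46.0, 50.9, 63.9 and 56.5 CPM of Wnt4 in Tet-TKO and 34.6 and 34.4 CPM in WT host libraries, without overlap, but the difference of 0.65 on the log2 scale did not pass (adjusted p = 0.058, edgeR). Of its 3 clusters, cluster 33 (Batf3, Ripply3 and Pax8) had 46.3, 52.9, 62.8 and 34.8 CPM of Wnt4 in Tet-TKO and 18.7 and 17.3 CPM in WT host libraries (log2 fold change 1.45, adjusted p = 0.0112, edgeR). Cluster 28, with the highest Wnt4 level of the class (75.3 to 108 CPM in Tet-TKO, 83.7 and 84.7 CPM in WT host), differed by 0.15 (adjusted p = 0.803, edgeR). Cluster 15 differed by 1.09 (adjusted p = 0.435, edgeR). In the neural cluster 5 Wnt4 was lower without overlap at 3.41 to 4.70 against 7.82 and 10.4 CPM, which did not pass (-1.11, adjusted p = 0.123, edgeR). In NMP and caudal epiblast-like cells Wnt4 was low in WT host cells (3.12 and 3.60 CPM) and reached 5.87, 9.55, 30.2 and 25.1 CPM in Tet-TKO libraries 1 to 4. All Tet-TKO values were above WT host, with the deeper libraries 3 and 4 the highest, and the spread left an adjusted p of 0.203 (log2 fold change 2.35, edgeR), whereas DESeq2 called it (0.00256). Presomitic mesoderm-like cells had the same order of libraries at 2.24, 3.22, 10.2 and 8.14 CPM against 1.13 and 0 CPM (adjusted p = 0.436, edgeR).

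The Wnt4 difference was tested between classes with the library as a block. It was lower in ExE mesoderm-like than in surface ectoderm-like cells by -2.81 ± 0.22 and than in cluster 21 by -2.24 ± 0.25 on the log2 scale (adjusted p = 1.96e-05 and 2.73e-05, edgeR, with 0.1% and 0.167% of genes called). It was lower in mesenchyme-like cells than in the same classes by -3.75 ± 0.25 and -3.36 ± 0.25 (adjusted p = 4.18e-06 and 2.45e-07, edgeR, with 1.05% and 0.259% of genes called), where the uneven filling of clusters applies. These pairs were chosen after the calls were seen.

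Wnt2, a ligand of the heart-forming region, lung and allantois, was highest in cluster 35 (Mab21l2, Shisa3, Tnc and Wnt2), with 276 and 275 CPM in WT host libraries, followed by cardiomyocyte-like cells (213 and 250 CPM) and the Vcam1+ cluster 4 (136 and 191 CPM). These 3 did not overlap among themselves. The Tet-TKO libraries were under the WT host ones in cluster 35 (160 to 199 CPM) and in cluster 4 (81.2, 89.3, 109 and 95.2 CPM). Their log2 fold changes were -0.66 (adjusted p = 0.052) and -0.82 (adjusted p = 0.026, edgeR), short of both the adjusted p and the minimum fold of a call. Cardiomyocyte-like cells overlapped at 155 to 227 CPM in Tet-TKO libraries (-0.41, adjusted p = 0.335, edgeR). Cluster 9 (Alx1, Aldh1a2 and Osr1) had 26.7 to 61.8 CPM against 92.8 and 94.2 CPM, with an adjusted p of 0.298 in edgeR.

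Mesenchyme-like cells gave the only difference of Wnt2 called by edgeR, while DESeq2 also called erythroid-like cells (log2 fold change 1.50, adjusted p = 0.000332). The WT host libraries had 92.7 and 114 CPM, and Tet-TKO libraries 1 to 4 had 22.6, 34.3, 19.2 and 32.6 CPM (log2 fold change -1.98 ± 0.23, adjusted p = 0.00229, edgeR, 1.55% of genes called). All Tet-TKO libraries were low, and 12.2% of thinned Tet-TKO cells had a Wnt2 UMI against 34.7% of WT host cells (30.6% and 61.3% before thinning), with 0.276% and 0.396% in gut endoderm-like cells. Within cluster 30 the levels were 128 and 152 CPM in WT host and 51.8, 82.2 and 83.4 CPM in the first 3 Tet-TKO libraries (-0.96, adjusted p = 0.0149). Library 4, left out of that fit, had 132 CPM in 9 cells, within the WT host range. Within cluster 7 the log2 fold change was -0.83 (adjusted p = 0.418, edgeR). The direction held in both clusters for the libraries fitted, at less than the fold of the joined class. The call of the joined class was lost without correction between libraries. It was also lost without WT host library 1 or 2, which left a lone WT host library. The log2 fold change of the joined class was lower than that in cluster 35 by -1.36 ± 0.19 (adjusted p = 0.000102, edgeR, 0.762% of genes called), a pair chosen after the calls were seen. In blood classes the Wnt2 log2 fold change was above 0, with 1.51 in erythroid-like cells (adjusted p = 0.0113) and 2.04 in cluster 8 (Hbb-bh0, Car1 and Gata1, adjusted p = 0.0313, edgeR), and in erythroid cluster 45 alone it was -0.35 (adjusted p = 0.691, edgeR). Levels were low there, at 13.8 to 15.4 CPM in Tet-TKO and 3.48 to 4.995 CPM in WT host erythroid-like cells. Cluster 8 had 4.97 to 9.90 CPM in Tet-TKO and 1.03 to 2.22 CPM in WT host libraries.

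Wnt5a, which signals largely through Ror receptors and drives elongation of the body axis, had the highest levels of the 10 ligands over whole E8.5 libraries and was tested in 30 classes. In WT host cells cluster 1 (Cdx4, Evx1 and Hox genes) led with 145 and 143 CPM, and its Tet-TKO libraries had 126 to 129 CPM, just under. Cluster 22 (Mixl1, Mesp1 and T), cluster 34 (led by non-coding and mitochondrial RNAs), allantois-like and mesenchyme-like cells followed at means of 128 ± 20.1, 119 ± 43.8, 115 ± 21.6 and 110 ± 14.5 CPM (SD, n = 2). These do not differ beyond their spread, and 1 library of cluster 34 (150 CPM), whose cells have few UMIs, lay above cluster 1. The log2 fold change was above 0 in 25 of the 30 classes with a median of 0.38, and 1 of the 30 was called. The classes share libraries, so their directions are not independent. In mesenchyme-like cells Wnt5a stood at -0.28 (adjusted p = 0.325), but within its cluster 7 at 0.86 (adjusted p = 0.0993, edgeR), with 77.5 to 104 CPM in Tet-TKO and 43.9 and 48.9 CPM in WT host libraries.

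The class called for Wnt5a was erythroid-like cells, where 5.03% of genes were called. WT host libraries stood at 6.31 and 4.87 CPM of Wnt5a, and Tet-TKO libraries 1 to 3 at 35.4, 24.6 and 26.1 CPM (log2 fold change 2.04 ± 0.24, adjusted p = 0.00179, edgeR). All 3 Tet-TKO libraries were above both WT host libraries, and library 4 (7 cells, no Wnt5a UMI) was left out. The class held 112 Tet-TKO cells against 2878 WT host cells, and its clusters differed in Wnt5a. Cluster 45 (Icam4 and Gata1 are among its leading genes) held 52 of those Tet-TKO and 227 of the WT host cells, and there Wnt5a reached 34.5 and 32.8 CPM in WT host libraries, beside 46.5, 31.3 and 95.7 CPM in the first 3 Tet-TKO libraries (13, 37 and 2 cells). The haemoglobin-rich clusters 3 and 13, with 1383 and 924 WT host but 13 and 5 Tet-TKO cells, had 0.429 to 0.709 CPM of Wnt5a in WT host libraries. Within cluster 45 the log2 fold change of Wnt5a was 0.09 ± 0.24 (adjusted p = 0.929, edgeR, Tet-TKO libraries 1 and 2 only), so the difference of the joined class was not seen there. The call was lost without Tet-TKO library 1 or 2 (adjusted p = 0.0109 and 0.02, edgeR) and when doublets were removed. It was also lost without WT host library 2, which left a lone WT host library. Against cluster 1, a pair also chosen after the calls were seen, the log2 fold change of the joined class was higher by 2.15 ± 0.23 (adjusted p = 8.28e-06, edgeR, 4.01% of genes called). The erythroid markers were lower in the Tet-TKO cells of the class (8072 to 55990 against 99720 to 156400 CPM) and those of ExE mesoderm were higher (137 to 273 against 35.04 to 57.3 CPM). Of the 29 lists 2 were lower and 14 higher without overlap. Their part in the result was not tested.

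Wnt5b, the closest relative of Wnt5a, leaned the other way. Its log2 fold change was below 0 in 22 of 26 classes, with a median of -0.40, but none of the 26 was called by edgeR or DESeq2, 5 had an unadjusted p under 0.05, and the smallest adjusted p over classes was 0.135 (allantois-like, -0.54, edgeR). These classes share libraries, so the run of directions is not independent evidence. Among classes with both WT host libraries, the Wnt5b level was highest in cluster 22 (124 ± 33.6 CPM, SD, n = 2, from 100 to 148). Notochord-like cells (78.1 ± 29.6 CPM) and NMP and caudal epiblast-like cells (74.0 ± 3.03 CPM) followed, and these 2 cannot be ordered. In NMP and caudal epiblast-like cells the Tet-TKO libraries had 68.3, 69.6, 77.8 and 60.9 CPM of Wnt5b and the WT host libraries 71.8 and 76.1 CPM. In ExE mesoderm-like cells the Wnt5b log2 fold change was -0.97 (adjusted p = 0.153, edgeR).

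Among the ligands of the streak and tail, Wnt3a was called in none of 8 classes by edgeR or DESeq2, and 1 had an unadjusted p under 0.05. NMP and caudal epiblast-like cells had 28.4, 33.3, 29.4 and 35.5 CPM of Wnt3a in Tet-TKO and 28.9 and 25.5 CPM in WT host libraries, which overlap (log2 fold change 0.23 ± 0.16, adjusted p = 0.585, edgeR). Cluster 22 (27.3 and 25.6 CPM in WT host) and presomitic mesoderm-like cells (20.4 and 28.2 CPM) could not be ordered against it, and every other class with both WT host libraries was under 10 CPM on average.

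Wnt8a was below 0 on the log2 scale in all 7 classes tested, with a median of -1.06, and none was called by edgeR or DESeq2 (4 had an unadjusted p under 0.05). The 7 classes share libraries. In epiblast-like cells (Nanog and Pou5f1 among the leading genes) the WT host libraries had 41.7 and 37.9 CPM of Wnt8a, and Tet-TKO libraries 1 to 3 had 25.4, 21.1 and 26.01 CPM (log2 fold change -0.71, adjusted p = 0.242, edgeR), without overlap. NMP and caudal epiblast-like cells had 36.6, 17.4, 13.6 and 10.2 CPM against 58.8 and 18.5 CPM, where the libraries numbered 1 of both genotypes were the highest and the groups overlapped. Cluster 38, the part of that class led by Wnt8a, Cdx1 and Nkx1-2, gave -0.78 (adjusted p = 0.00431, edgeR, 2 libraries of each genotype), under the minimum fold. Cluster 2, the other part, gave -0.50 (adjusted p = 0.727, edgeR).

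Wnt3 was sparse at E8.5. Its highest WT host level was in cluster 21 (32.0 and 29.6 CPM), with 19.3 to 28.6 CPM in Tet-TKO libraries (log2 fold change -0.32, adjusted p = 0.747, edgeR), and the next class with both WT host libraries, notochord-like cells, averaged 9.77 ± 5.59 CPM (SD, n = 2). None of 5 classes was called by edgeR or DESeq2, and 0 had an unadjusted p under 0.05.

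Wnt6, an epithelial ligand of the surface ectoderm, shared its leading classes with Wnt4. In cluster 21 Wnt6 stood at 321, 311 and 405 CPM in Tet-TKO and 446 and 541 CPM in WT host libraries, without overlap (log2 fold change -0.47, adjusted p = 0.301, edgeR). Surface ectoderm-like cells, clearly lower in WT host at 152 and 185 CPM, spanned 174 to 346 CPM in Tet-TKO libraries. Of 22 classes 11 were above and 11 below 0, none was called by edgeR and 1 (mesenchyme-like) by DESeq2, and 5 had an unadjusted p under 0.05. Neural crest-like cells had 14.6, 15.2 and 10.2 CPM of Wnt6 in the 3 Tet-TKO libraries fitted and 1.57 and 3.69 CPM in WT host, without overlap, which did not pass (log2 fold change 2.10, adjusted p = 0.0713, edgeR). In mesenchyme-like cells the Wnt6 log2 fold change was -1.41 (adjusted p = 0.0252), whereas within clusters 7 and 30 it was 0.0066 and 0.29 (adjusted p = 0.998 and 0.8285, edgeR, the latter without Tet-TKO library 4). In cluster 38 alone, Wnt6 passed at 1.63 ± 0.38 (SE, adjusted p = 0.00539, edgeR, 2 libraries of each genotype).

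Wnt7b, a ligand of the chorion and placenta, was seen mainly in ExE ectoderm-like cells. ExE ectoderm-like cells had 75.4 and 75.1 CPM of Wnt7b in WT host libraries, and the class held 206 WT host cells and 1 Tet-TKO cell, so no genotype comparison was possible. The other classes were much lower, with surface ectoderm-like cells at 4.92 ± 0.58 CPM in WT host (SD, n = 2) and 5.19 ± 3.16 CPM in Tet-TKO (SD, n = 4), which overlap.

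Over whole E8.5 libraries the ligands mix expression with cell composition, and fewer cells of a class and less RNA per cell cannot be told apart. None of the 10 ligands was called (edgeR, against 2.65% of 21075 genes), and DESeq2 called 2, Wnt1 and Wnt7b (against 6.86% of genes). In edgeR 4 had an adjusted p under 0.05 (against 10.5% of genes). An unadjusted p under 0.05 was found for 6, a count with no share over all genes beside it. WT host libraries stood at 3.14 and 7.55 CPM of Wnt1 and Tet-TKO libraries 1 to 4 at 0.687, 1.48, 1.15 and 1.31 CPM, all lower (log2 fold change -2.30 ± 0.40, adjusted p = 0.0158, edgeR). Wnt5a had 62.0, 55.8, 56.6 and 55.7 CPM against 32.7 and 25.3 CPM, with all Tet-TKO values higher (0.91 ± 0.15, adjusted p = 0.013, edgeR). Wnt3a at 3.31 to 5.39 against 2.14 and 2.20 CPM and Wnt4 at 10.6 to 12.9 against 8.16 and 7.54 CPM were also higher without overlap (0.95 and 0.49, adjusted p = 0.0268 and 0.031, edgeR). Wnt7b had 0.203 to 0.911 CPM against 2.56 and 1.51 CPM (-1.96, adjusted p = 0.0663, edgeR), beside 206 ExE ectoderm-like cells in the WT host and 1 in the Tet-TKO libraries.

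When every library was given the same mix of the 25 classes with at least 10 cells in all 6 libraries (at least 63.1% of the cells of each library, without cluster 21 and neural crest-like, epiblast-like and erythroid-like cells), Wnt1 stayed lower (1.21 ± 0.20 CPM in Tet-TKO, SD, n = 4, and 5.31 ± 0.14 CPM in WT host, SD, n = 2, log2 ratio -2.14), whereas Wnt5a (59.3 ± 3.74 and 53.6 ± 3.51 CPM), Wnt3a (4.41 ± 0.57 and 4.01 ± 0.12 CPM) and Wnt4 (9.40 ± 2.40 and 9.99 ± 0.60 CPM) overlapped between genotypes. Wnt2 turned from 0.15 over whole libraries to a log2 ratio of -0.74, with all Tet-TKO libraries lower (22.8 ± 1.02 and 37.9 ± 3.30 CPM). Wnt5b also lay lower in all Tet-TKO libraries (-0.28).

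**Figure D4:**
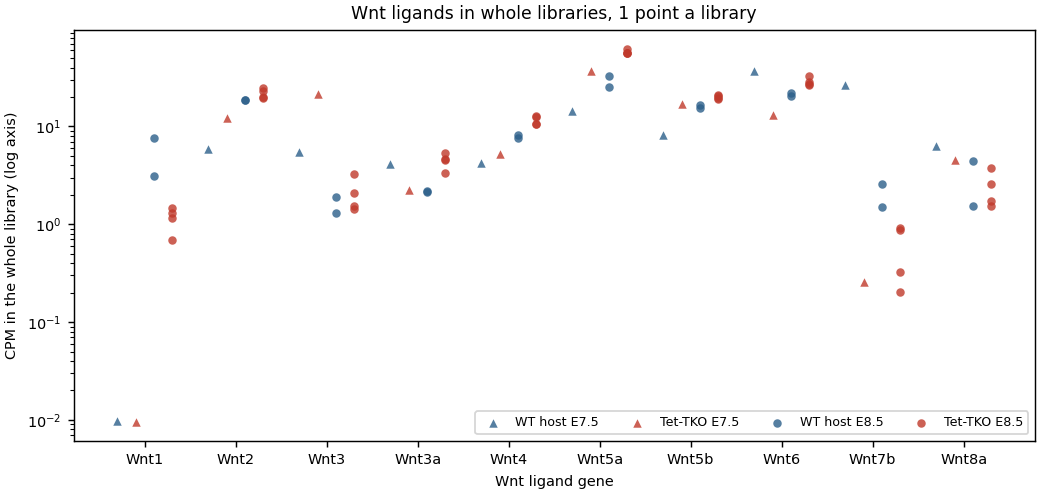
Level of each ligand (CPM) in each whole library at E7.5 and E8.5, coloured by genotype. At E8.5 the 4 Tet-TKO libraries of Wnt1 lie at 0.687 to 1.48 CPM under the WT host libraries at 3.14 and 7.55 CPM, and those of Wnt5a lie at 55.7 to 62.0 CPM above 25.3 and 32.7 CPM.

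At E7.5 there was 1 library per genotype and no test was possible, so the 95% exact Poisson intervals given below cover counting error only. Of the 9 ligands with at least 20 UMIs, 6 differed by at least 2-fold over whole libraries, against 17.2% of features. Of these, 4 were higher in Tet-TKO (5.1% of features) and 2 lower (12.1% of features). Wnt3 had 21.3 CPM in Tet-TKO and 5.51 CPM in WT host cells (3.88 times), Wnt5a 36.6 and 14.5 CPM (2.52 times), Wnt5b 16.9 and 8.18 CPM (2.07 times) and Wnt2 12.2 and 5.93 CPM (2.06 times). Wnt7b had 26.6 CPM in WT host and 0.256 CPM in Tet-TKO (104 times higher in WT host), and Wnt6 37.2 and 13.1 CPM (2.84 times). Wnt1 had 1 UMI in each library. ExE ectoderm-like cells (1840 WT host and 8 Tet-TKO cells) held 96.6% of the Wnt7b and 79.8% of the Wnt6 UMIs of the WT host library.

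Within E7.5 classes the differences of Wnt3, Wnt5a and Wnt5b varied. Wnt3 in nascent mesoderm-like cells was 50.4 CPM (45.9 to 55.3) in Tet-TKO and 46.6 CPM (35.6 to 60.02) in WT host, with 369 and 85 cells, and the intervals overlap. Cluster 15 (Klhl6, Lmo1 and Six2) gave 53.7 CPM (48.4 to 59.4) and 45.9 CPM (33.5 to 61.4) of Wnt3, whereas cluster 5 (Cdx4 and Hoxb1) gave 27.6 CPM (24.4 to 31.1) and 12.4 CPM (8.47 to 17.5), without overlap. Wnt5a in allantois-like cells was 133 CPM (121 to 146) and 122 CPM (106 to 140), and in cluster 5 it was 68.3 CPM (63.2 to 73.7) and 74.3 CPM (64.2 to 85.6), both overlapping. In presomitic mesoderm-like cells Wnt5a was 50.1 CPM (42.2 to 59.0) in Tet-TKO and 25.9 CPM (20.9 to 31.7) in WT host, without overlap. Wnt5b in cluster 5 was 42.7 CPM (38.7 to 47.0) and 37.9 CPM (30.8 to 46.2), and in cluster 26 it was 61.6 CPM (51.5 to 73.0) and 91.1 CPM (71.9 to 114), where the intervals overlap in both.

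Wnt3a and Wnt8a, the tail ligands, had lower values in the Tet-TKO library at E7.5 in the classes given here, with overlapping intervals in some. Wnt3a in presomitic mesoderm-like cells stood at 24.7 CPM (19.3 to 31.2) in Tet-TKO and 49.2 CPM (42.2 to 57.1) in WT host. Its cluster 20 alone had 42.7 CPM (32.7 to 54.7) and 54.7 CPM (46.5 to 64.0), which overlap, and cluster 30 had 5.79 CPM (2.50 to 11.4) and 26.1 CPM (15.5 to 41.3), which do not. In cluster 26 (Hoxaas3, Wnt3a and Fgf17) Wnt3a was 17.9 CPM (12.6 to 24.5) in Tet-TKO and 47.3 CPM (33.8 to 64.4) in WT host. Wnt8a in cluster 6 (Hes3, Nkx1-2 and Wnt8a) was 25.9 CPM (20.8 to 31.9) in Tet-TKO and 51.6 CPM (46.2 to 57.5) in WT host, and in presomitic mesoderm-like cells 26.8 CPM (21.1 to 33.6) and 35.98 CPM (30.02 to 42.8), where the intervals overlap.

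Wnt4 at E7.5 had lower values in Tet-TKO cells of the classes named as at E8.5, each a single cluster here. ExE mesoderm-like cells had 8.66 CPM (7.12 to 10.4) of Wnt4 in Tet-TKO and 17.5 CPM (13.2 to 22.7) in WT host, and mesenchyme-like cells had 27.3 CPM (21.4 to 34.3) and 48.3 CPM (40.4 to 57.3). Surface ectoderm-like cells had 18.3 CPM (13.5 to 24.1) and 13.8 CPM (10.0 to 18.6), which overlap. Wnt6, in contrast, was higher in Tet-TKO mesenchyme-like cells at 53.5 CPM (45.1 to 63.0) against 36.1 CPM (29.3 to 44.0). Wnt2 in nascent mesoderm-like cells was 34.0 CPM (30.3 to 38.04) in Tet-TKO and 60.6 CPM (47.9 to 75.7) in WT host.

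**Figure D5:**
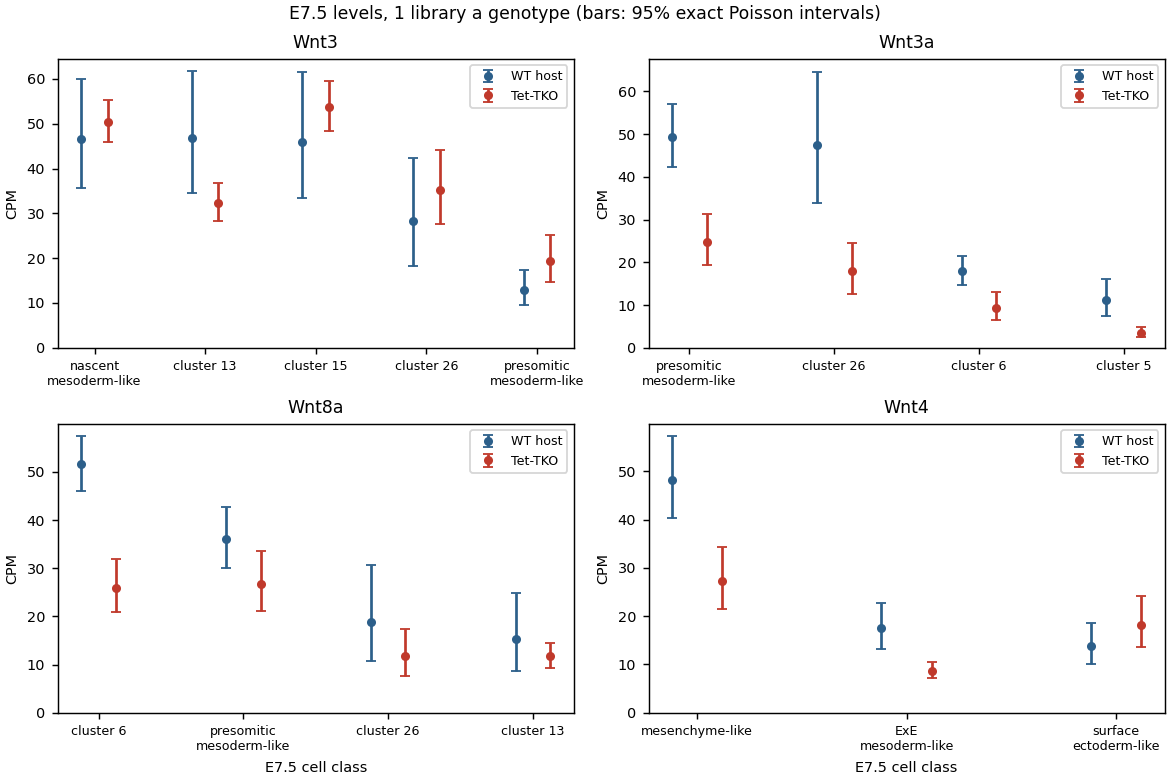
Levels (CPM) of the ligands in E7.5 classes, Tet-TKO against WT host, with 95% exact Poisson intervals that cover counting error only. Wnt4 in ExE mesoderm-like cells lies at 8.66 CPM in Tet-TKO and 17.5 CPM in WT host, and Wnt8a in cluster 6 at 25.9 and 51.6 CPM.

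The pattern of each ligand over 36 classes of E8.5 WT host cells was compared with 9322 genes (Pearson correlation of log2 of CPM + 1, given as a description since classes share libraries). Wnt1 was most like Msx3 (0.848), Fam181b (0.846) and Pdzph1 (0.826), Wnt2 like Tbx5 (0.915), Gata5 (0.908) and Hand2os1 (0.879), and Wnt8a like Olig3 (0.855), Pou5f1 (0.845) and Gbx2 (0.696). Wnt3a was most like Fgf17 (0.843), Grsf1 (0.827) and Lrp8 (0.811), Wnt7b like Elf5 (0.834), AU018091 (0.806) and Fthl17a (0.795), and Wnt6 like Il17re (0.835), Cdh3 (0.796) and Bcam (0.790). For Wnt5a the leading genes were Haglr (0.844), Crispld1 (0.841) and Gm45889 (0.830), for Wnt5b Wdr33 (0.815), Itgb8 (0.810) and Greb1 (0.806), for Wnt4 Lrrn4 (0.740), Snx12 (0.729) and Bicdl1 (0.722), and for Wnt3 Aldh2 (0.726), Sostdc1 (0.666) and Dlx5 (0.657). Among the ligands themselves the highest of 45 correlations were Wnt4 with Wnt6 (0.681) and Wnt5a with Wnt5b (0.670).

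Calls among the other genes of the pathway were counted by list. Over all classes, 0 of 26 tests of the other Wnt ligands passed in edgeR (7 had an unadjusted p under 0.05), 1 of 110 of processing and release genes (Wls, up), 2 of 348 of receptors (Fzd2 up, Ror1 down), 4 of 205 of extracellular inhibitors and agonists (2 up and 2 down, among Dkk1, Sfrp1 and Sfrp5) and 3 of 261 of response genes (Ccnd1 and Lef1 up, Nkd1 down), against the same background of 0.647%. In mesenchyme-like cells Ror1, a receptor of Wnt5a, fell by 2.38 and Nkd1, a feedback inhibitor and response gene, fell by 1.26 on the log2 scale. These were 1 of 13 receptor and 1 of 9 response gene tests, in a class where 1.55% of genes were called. Of the other lists there, 0 of 2, 0 of 4 and 0 of 8 tests were called. In erythroid-like cells Wls (1.26), Fzd2 (1.34), Sfrp1 (1.92), Ccnd1 (1.29) and Lef1 (1.62) were called higher. These were 1 of 2 processing and release, 1 of 9 receptor, 1 of 5 inhibitor and agonist and 2 of 7 response gene tests. In that class 5.03% of genes were called. Both classes have clusters that the genotypes filled unequally. In midbrain-hindbrain boundary-like and ExE mesoderm-like cells none of the tested response genes (9 in each) was called by edgeR (3 and 1 had an unadjusted p under 0.05), with median log2 fold changes of 0.19 and -0.16.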

How the data were processed

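The authors mapped reads to mm10 with Cell Ranger (annotation GRCm38.92 plus tdTomato) and the deposited matrices hold unnormalized UMI counts for every gene in each barcode of 8 libraries. Other experiments were not analysed here. A cell needed at least 1500 UMIs, of which no more than 30% mitochondrial and 35% ribosomal. Clustering (scanpy 1.11.5, leidenalg 0.10.2, Python 3.11.15) used 2500 variable genes without Wnt pathway genes, 50 principal components, correction by 20 mutual nearest neighbours and Leiden resolution 2, per stage, so that cluster numbers of E7.5 and E8.5 are unrelated. Doublets were scored and removed only as an alternative. UMIs were summed per class and library (at least 10 cells, at least 2 libraries of each genotype) and tested with edgeR 4.0.16 in R 4.3.3 (filterByExpr, TMM, glmQLFTest, Benjamini-Hochberg adjustment over all genes of a fit). A call needed an adjusted p under 0.01 and at least a 2-fold difference. DESeq2 1.42.0 was an alternative. CPM values were computed from the deposited counts, and a pseudocount of 1 CPM was used for the correlations and the plot of levels by class.

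On simulated counts edgeR recovered 93% of genes changed by a log2 fold of 2 over all cells (20794 genes) and 12% of those changed by 1 (20788 genes). In presomitic mesoderm-like cells it recovered 81% (9964 genes) and 7.5% (10029 genes). The simulated counts had the same spread between libraries, beyond counting error, set for every gene. Recovery for genes with a larger spread was not measured, so these shares do not hold for every ligand. All 10 ligands were named whatever their values. For each, the 3 genes with the most similar pattern were named, and other pathway genes were named where called beside a ligand or where a count was 5 or fewer. The ligands, lists and tests were chosen with earlier results of these data known. Gene positions are from GENCODE M21 and promoter sequences from RefSeq. Alternatives concerned normalization, the filter on low counts, DESeq2, a replicate block, clustering resolution and correction, doublets, depth, tdTomato, cell minimums, single clusters and each library left out.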

Additional observations from a re-analysis of the deposited data

Results flagged for a closer look

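The Wnt5a level of Tet-TKO library 1 over the whole E8.5 library was 62.0 CPM, while the other 3 Tet-TKO libraries lay between 55.7 and 56.6 CPM. Such a gap is found by chance in about 1 of 20 groups, and 23 groups were examined.

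The difference between genotypes itself differed between classes in 7 tested pairs, all chosen after the calls were seen and tested in edgeR with the library as a block. For Wnt4 the log2 fold change in ExE mesoderm-like cells was lower than in cluster 21 by -2.24 and than in surface ectoderm-like cells by -2.81. In mesenchyme-like cells that of Wnt4 was lower than in cluster 21 by -3.36 and than in surface ectoderm-like cells by -3.75. Wnt1 differed by -1.64 between midbrain-hindbrain boundary-like and neural crest-like cells. Wnt2 in mesenchyme-like cells was lower than in cluster 35 by -1.36, and Wnt5a in erythroid-like cells was higher than in cluster 1 by 2.15. The pairs with mesenchyme-like or erythroid-like cells include classes whose clusters the genotypes filled unequally.

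Wnt2 ran in opposite directions in the tested libraries of some classes, without Tet-TKO library 4 in cluster 8 and erythroid-like cells. Its log2 fold change in cluster 4 was lower than in cluster 8 by -2.86 and than in erythroid-like cells by -2.33. In mesenchyme-like cells it was lower than in cluster 8 by -4.02 and than in erythroid-like cells by -3.49. These differences between classes were not tested. Wnt2 was low in both blood classes, at 1.03 to 2.22 CPM in WT host cluster 8 and 3.48 to 4.995 CPM in WT host erythroid-like cells.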

How the results depend on the processing

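Over cell classes the count of calls was 5 (0.647% of all gene tests called). It did not exceed 5 when single libraries were left out. With 1 Tet-TKO library left out, 0.44% to 0.744% of all gene tests were called. Leaving out a WT host library leaves a lone WT host sample that is assumed to vary like the Tet-TKO ones. There calls became fewer both for the ligands and for all genes. DESeq2 gave 8 (1.14% of all gene tests called), no filter on low counts 17 (1.19%), removal of doublets 3 (0.595%), an adjusted p of 0.05 with no minimum fold 9 (1.73%) and, both added after the data were seen, Tet-TKO libraries 1 and 2 alone 11 (1.72%) and single clusters 3 (0.542%). Over whole libraries the count was 0 (2.65% of all genes called). It stayed so with 1 Tet-TKO library left out (0.88% to 1.1%), while DESeq2 gave 2 (6.86%) and no filter 1 (2.63%). A block for the replicate number, which pairs only libraries 1 and 2, gave 19 calls over classes (2.75% of all gene tests called, against 0.647% without it) and 3 over whole libraries (8.71% against 2.65%). The study describes fractions sorted from the same pooled chimaeras and sets cell type proportions of each Tet-TKO sample against its matching WT host. Whether equal library numbers mark the same pool is not stated in the sources used here. The differences between libraries 1 and 2 of the genotypes correlated at 0.563 over 5510 genes, which is a hint of pairing and does not settle it. Without correction between libraries the Wnt2 adjusted p in mesenchyme-like cells was 0.0789, and without doublets that of Wnt5a in erythroid-like cells was 0.242 and that of Wnt4 in ExE mesoderm-like cells 0.0114 (edgeR). Direction turned for Wnt2, Wnt5b and Wnt6 in erythroid cluster 45 (-0.35, -0.47 and -0.60), for Wnt5a in cluster 7 (0.86), for Wnt6 in clusters 7 (0.0066) and 30 (0.29), and over whole libraries for Wnt2 and Wnt5b without erythroid-like and extraembryonic-like cells (-0.23 and -0.15). With each class weighted by its mean share of cells it turned for Wnt2 (-0.74), Wnt3 (-0.065), Wnt4 (-0.088) and Wnt5b (-0.28). With single libraries left out, Wnt3 ran from -0.018 (the first Tet-TKO library) to 0.60 (WT host library 1), and Wnt8a from -0.91 (WT host library 2) to 0.59 (WT host library 1). Wnt8a also turned under the block (0.24) and with Tet-TKO libraries 1 and 2 alone (0.11). The cause of these changes was not tested.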
